A study of Mus musculus with 6 samples.

Results

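The pair of libraries labelled F4/80hi comes from a study of tumour-associated macrophages (TAMs), the macrophages that gather inside a tumour, in mice with or without the chemokine gene Ccl5. Gene levels of this pair were deposited as FPKM, a fragment count divided by transcript length and by sequencing depth. A gene was taken in if its estimate was marked OK in both libraries and reached 5 FPKM in one or the other, and rows of small RNAs (Snora, Snord, Scarna, Mir and Rnu names) were left out. This gave 7969 of the 23284 genes in the table. Of the 8010 genes at or above 5 FPKM, 39 small RNA rows and 2 genes without an OK estimate were removed. The minimum was reached in both libraries by 7201 genes, in the ko-titled library alone by 382 and in the wt-titled library alone by 386. At the edge of the minimum, Mapkbp1 (1.92 and 5.001 FPKM) was in, and Uevld (4.9986 and 4.37 FPKM) was just out.

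All 6 libraries of the series were made from total RNA of cells from colorectal tumours in BALB/C mice. In the F4/80low gate, defined as CD11b-high and F4/80-low, there were 2 libraries of wild-type (WT) mice and 2 of CCL5-/- mice. The F4/80hi gate, CD11b-low and F4/80-high, had 1 library of each label. The mice's age and sex, the origin of the tumours, the design of the Ccl5 allele and any pooling of mice are not stated by the labels used here. The sample titles and the genotype fields of the F4/80hi pair disagree. One title holds "ko" where the fields say WT and CCL5+/+, and the other holds "wt" where the fields say CCL5-/-. Names here follow the titles: the ko-titled and the wt-titled library. Each difference is the ko-titled over the wt-titled library on the scale log2(FPKM + 1), which understates the change of weakly expressed genes. Naming by the genotype fields would turn every sign. With 1 library per title there is no replicate error, no test and no p-value, and every value below describes these 2 libraries.

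CCL5, also called RANTES, is a secreted chemokine that attracts T cells, monocytes and other leukocytes by binding receptors on their surface. Macrophages and lymphocytes inside tumours are among its known sources. F4/80, encoded by Adgre1 (listed as Emr1), is a surface protein of mature mouse macrophages, and CD11b, encoded by Itgam, is an integrin chain carried by macrophages, monocytes and neutrophils. Interferon gamma, made mainly by T and NK cells, drives macrophages to make T cell-attracting chemokines and guanylate-binding proteins that act against pathogens inside cells.

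Ccl5 itself stood at 15.7 FPKM in the ko-titled library (authors' bounds 1.72 to 29.8) and at 145 FPKM in the wt-titled library (bounds 57.1 to 233). The difference was -3.12 on the log2 scale, and the bounds did not overlap. The low library was thus the one whose title holds "ko" and whose genotype field says WT. In GRCm38 coordinates Ccl5 lies on chromosome 11, 83525778 to 83530518. In the F4/80low count table, where titles and fields do not conflict, Ccl5 had 255 and 3976 reads in WT replicates 1 and 2 and 35 and 82 reads in CCL5-/- replicates 1 and 2. Ccl5 transcripts were therefore lower than in the partner library, but not at 0, in the ko-titled library and in both CCL5-/- libraries. Ccl5 stood above 54.3% of the genes taken in for the ko-titled library and above 94.1% for the wt-titled one. The ko-titled library and CCL5-/- replicate 1 are treated below as the same library, so they are not separate evidence.

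The gate label was checked against its own genes. Itgam, the CD11b gene, had 173 FPKM in the ko-titled and 177 FPKM in the wt-titled library, above 94.99% and 95.01% of all members. Emr1, the F4/80 gene, had 27.0 and 18.2 FPKM, above 71.5% and 60.3% of members. Macrophage genes were abundant: Csf1r, the receptor for the macrophage growth factor CSF1, had 64.9 and 60.8 FPKM, the lysosomal protein gene Cd68 89.95 and 85.5 FPKM, and the lysozyme gene Lyz2 4175 and 2929 FPKM. The Itgam transcript was thus not low in libraries labelled CD11b-low, though transcript and surface protein can differ.

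In the ratio between its 2 libraries, the F4/80hi pair also did not stand apart from the F4/80low replicate 1 pair. It did differ from the replicate 2 pair. Over 3499 genes with 20 to 400 reads, the FPKM ratio of the pair gave the split of reads between CCL5-/- and WT replicate 1 of F4/80low with a median chi-square of 0.342. Independent reads with the same ratio would give at least 0.455. Against the replicate 2 pair the median was 5.13, over 371 genes. Over genes with at least 50 reads, 91.7% of 7168 lay within 0.25 log2 units of the replicate 1 ratio, and 41.3% of 7711 lay within it for replicate 2. The FPKM pair and the replicate 1 pair therefore differed from each other by less than sampling noise, and both are treated here as the same 2 libraries, the ko-titled one with CCL5-/- replicate 1 and the wt-titled one with WT replicate 1. Which gate they came from cannot be told from these files. Replicate 2 remains as a separate pair, labelled F4/80low, and its values are set beside those of the F4/80hi pair below.

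Most genes had like levels in the 2 libraries, and the differences were unequal in kind. The median difference over the 7969 members was 0.04, and the lower and upper quartiles were -0.17 and 0.24. At least 2-fold higher in the ko-titled library were 76 genes, 0.954% of members, and at least 2-fold lower were 135, or 1.69%. Of the 76, 15 were listed at 0 in the wt-titled library, and 1 of the 135 was listed at 0 in the ko-titled one. The authors' bounds are wide, with a median width of 1.26 times the FPKM in the wt-titled library. Asking in addition that the bounds not overlap left 19 higher genes (0.238%) and 25 lower genes (0.314%), and 10 of those 19 were listed at 0 in the wt-titled library. Among the lower genes, neutrophil genes led. Among the higher ones, genes of liver cells led, followed by interferon gamma targets, 4 CC chemokines and enzymes of cholesterol synthesis. Of the 14 hepatocyte list members, 9 were listed at 0 in the wt-titled library and so entered only through the ko-titled one.

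**Figure D1:**
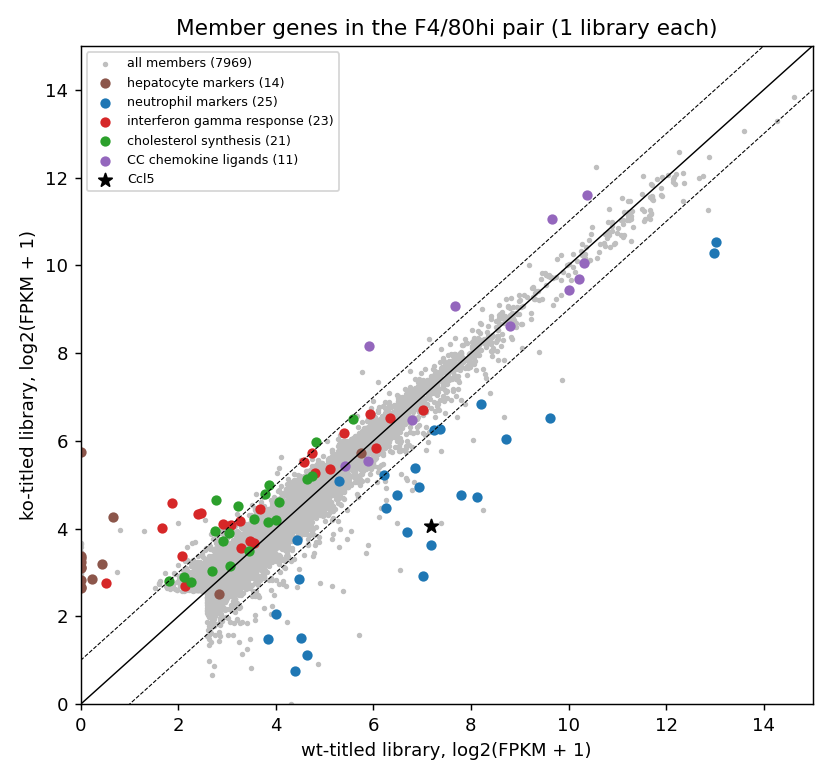
Levels of the 7969 members in the wt-titled (x axis) and ko-titled (y axis) library, both as log2(FPKM + 1). Each point is a gene, the solid line marks equal levels and the dashed lines mark 2-fold. Neutrophil markers lie below the lower dashed line for 21 of 25 genes, and Ccl5 (star) is at 145 and 15.7 FPKM. Of 14 hepatocyte markers, 12 lie above the upper line. Of those 14, 9 are listed at 0 in the wt-titled library, so they could become members only through the ko-titled one.

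Chemokine ligands were divided. Of 16 CC chemokine genes listed apart from Ccl5, 11 were members, 4 were at least 2-fold higher in the ko-titled library and 0 were 2-fold lower. Their median was -0.19, against 0.04 over all members. The 4 are monocyte attractants that lie in one gene cluster on chromosome 11. Ccl8 had 287 FPKM against 59.5, a difference of 2.25, and it was the only one of the 4 with bounds apart. Ccl12 had 538 against 204 FPKM, a difference of 1.39. Ccl7 had 2119 against 813 FPKM, a difference of 1.38. Ccl2, among the strongest known attractants of monocytes, had 3096 against 1335 FPKM, a difference of 1.21. All 4 were thus higher in the library with the lower Ccl5 level. The other CC chemokines lay close to equal or below it. Ccl3 and Ccl4, made by activated macrophages, had 692 against 1033 and 825 against 1190 FPKM, differences of -0.58 and -0.53. Ccl24, an eosinophil attractant, was level at 42.4 and 41.9 FPKM.

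In the replicate 2 pair the same 4 genes did not stand out. Ccl2 had 57042 reads in WT and 42225 in CCL5-/- replicate 2, a log2 difference of -0.19 on the scale log2(CPM + 1), where CPM is the read count scaled to library size. For Ccl7, Ccl8 and Ccl12 the differences were -0.36, -0.48 and -0.17. That pair had instead lower values for Ccl4 at -1.14, Ccl6 at -1.46 and Ccl9 at -1.33. Over all members with at least 20 reads in either library of that pair, 0.59% were 2-fold higher and 1.58% were 2-fold lower in CCL5-/-, with a median of 0.08.

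Of the CXC, CX3C and XC ligands, 12 of 16 were members and 2 were 2-fold higher, with none lower. Cxcl9, which attracts activated T cells and is induced by interferon gamma, had 23.1 FPKM against 2.67, a difference of 2.71 with bounds apart. Cxcl5, a neutrophil attractant, had 12.7 against 5.60 FPKM, a difference of 1.05. The main neutrophil attractants Cxcl1 (2985 against 2176 FPKM), Cxcl2 (3071 against 3353 FPKM) and Cxcl3 (872 against 1013 FPKM) differed by less than 2-fold. Cxcl10, another interferon-induced ligand, was at 56.0 and 65.5 FPKM and so did not share the difference of Cxcl9. Among the 7 chemokine receptor members, Cxcr2, the neutrophil receptor for several of these ligands, was 2-fold lower at 6.26 against 21.3 FPKM, and the monocyte receptor Ccr2 was level at 64.9 and 61.6 FPKM.

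A targeted allele can carry flanking chromosome with it, so the genes near Ccl5 were listed. Within 5 Mb of Ccl5 on chromosome 11 lay 67 other members, of which 7 were 2-fold higher and 4 lower. Elsewhere on the chromosome the counts were 4 and 4 of 599. The 4 CC chemokines above make up part of the 7. The others were Slfn9 of the Schlafen family (16.4 against 7.06 FPKM, 1.11), Ift20, which serves transport within cilia (19.1 against 8.23 FPKM, 1.13), and AA465934 (14.6 against 0.746 FPKM, 3.16). For AA465934 the count table gave 31 and 13 reads in replicate 1, a difference of 0.66, well under the FPKM one.

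The 4 lower genes were the WAP-domain protein genes 1100001G20Rik (now Wfdc21) and Gm11428 (now Wfdc17), the RNA helicase gene Dhx40 and the Schlafen pseudogene Slfn10-ps. The gene 1100001G20Rik had 25.3 FPKM against 278, and Gm11428 had 165 against 935 FPKM. Dhx40, at 86768849 to 86807877 on chromosome 11, had 3.13 FPKM against 13.97, a difference of -1.86. Slfn10-ps had 2.65 against 7.33 FPKM, a difference of -1.19. In replicate 2, Dhx40 differed by -1.86 (522 reads in WT and 108 in CCL5-/-) and Slfn10-ps by -1.51 (358 and 94 reads). Both were thus lower in the separate pair too. So were Gm11428 at -0.97 and 1100001G20Rik at -0.88, each short of 2-fold. Any flanking chromosome carried with the Ccl5 allele and the loss of Ccl5 cannot be told apart with this design. The gene 1100001G20Rik is also on the neutrophil list below, of which all 25 members were lower in the ko-titled library. The part of neutrophil RNA in the values near Ccl5 was not tested.

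**Figure D2:**
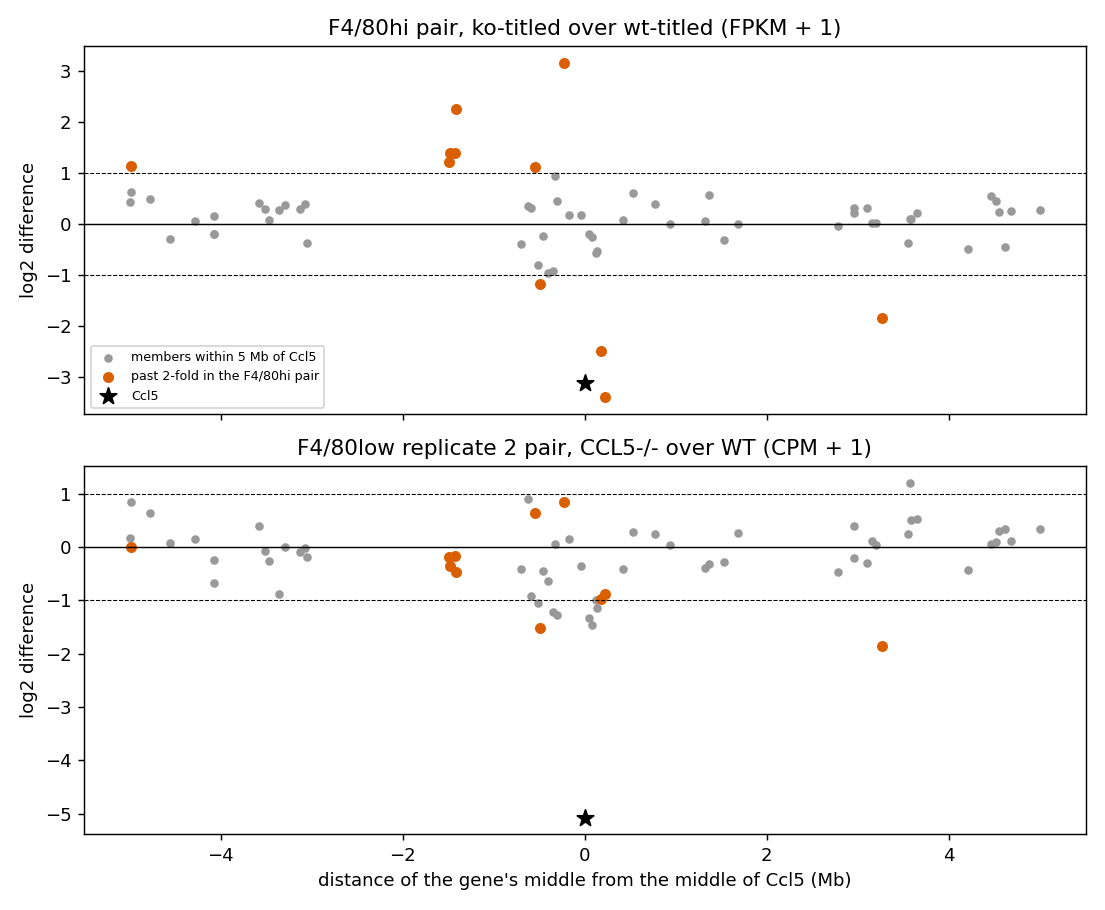
Log2 difference of the 67 members within 5 Mb of Ccl5 against their distance from it in Mb, in the F4/80hi pair (top, FPKM + 1) and in the F4/80low replicate 2 pair (bottom, CPM + 1, genes with at least 20 reads). Orange points passed 2-fold in the F4/80hi pair and the star is Ccl5; Dhx40 is the orange point to the right, at -1.86 in both pairs.

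Interferon gamma target genes were mostly higher in the ko-titled library. Of 30 listed, 23 were members, 21 of them had a difference above 0 and 8 were at least 2-fold higher, with 0 lower. The median was 0.78, against 0.04 over all members. The 8 were Cxcl9, the GTPase genes Iigp1, Tgtp1, Tgtp2, Igtp, Gbp4 and Gbp7, and the protease inhibitor gene Serpina3g. Promoter sequences from RefSeq (GRCm38.p6) are shown for 4 of them, the chemokine, the inhibitor and a pair of GTPases, to place known interferon elements beside the values. Each is the 250 bases before the start, 5′ to 3′ on the gene's strand, with capitals for the interferon response element (GAAA, any 2 bases, GAAA) or the STAT site TTCNNNGAA, both searched on either strand. Cxcl9 is at chr5:92328080-92328329 (minus strand), Tgtp1 at chr11:48992247-48992496 (minus), Igtp at chr11:58199306-58199555 (plus) and Serpina3g at chr12:104235897-104236146 (plus).
Cxcl9: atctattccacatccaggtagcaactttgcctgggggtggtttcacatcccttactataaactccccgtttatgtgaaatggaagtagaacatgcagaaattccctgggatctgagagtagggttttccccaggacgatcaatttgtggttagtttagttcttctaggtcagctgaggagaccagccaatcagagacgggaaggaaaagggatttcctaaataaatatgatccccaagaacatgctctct
Tgtp1: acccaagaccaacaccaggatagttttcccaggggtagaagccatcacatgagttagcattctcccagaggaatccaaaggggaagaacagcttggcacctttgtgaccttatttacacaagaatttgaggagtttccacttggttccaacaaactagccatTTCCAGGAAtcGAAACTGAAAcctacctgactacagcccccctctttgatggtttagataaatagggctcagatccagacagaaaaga
Igtp: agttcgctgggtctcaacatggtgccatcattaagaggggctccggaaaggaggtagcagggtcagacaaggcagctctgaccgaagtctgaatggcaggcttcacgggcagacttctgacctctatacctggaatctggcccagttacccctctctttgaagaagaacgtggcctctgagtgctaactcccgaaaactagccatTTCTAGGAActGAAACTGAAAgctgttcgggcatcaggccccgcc
Serpina3g: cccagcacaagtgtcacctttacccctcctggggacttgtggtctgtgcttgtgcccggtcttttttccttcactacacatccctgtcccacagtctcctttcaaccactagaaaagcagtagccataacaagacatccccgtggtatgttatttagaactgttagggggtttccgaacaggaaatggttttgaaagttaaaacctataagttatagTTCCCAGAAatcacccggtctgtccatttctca
In Tgtp1 the STAT site ends 80 bases and the response element begins 77 bases before the start, and in Igtp the same pair lies at 37 and 34 bases. Serpina3g holds a STAT site alone, and neither motif is in the Cxcl9 window. Of 19 list members with a promoter entry, 10 held the response element and 9 the STAT site, against 2.98% and 7.02% of 32851 RefSeq promoters. Members that did not pass 2-fold held them too, such as Socs1 and Gbp5. A match describes letters only.

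The levels of these genes were modest in both libraries. Iigp1, an immunity-related GTPase that attacks the vacuoles of parasites, had 15.1 FPKM against 2.16, a difference of 2.35 with bounds apart. Gbp4, a guanylate-binding protein, had 19.3 against 4.33 FPKM, a difference of 1.93. Serpina3g had 19.6 against 4.52 FPKM, a difference of 1.90. Igtp had 16.3 against 6.52 FPKM, a difference of 1.20, and Gbp7 had 16.0 against 7.41 FPKM, a difference of 1.02. Tgtp1 (5.75 against 0.430 FPKM) and Tgtp2 (9.36 against 3.22 FPKM) are near-identical copies whose fragments may be shared between them. The transcription factor gene Irf1, which interferon gamma induces, had 71.4 against 41.1 FPKM, a difference of 0.78. Upp1 and Cxcl10 were the 2 members below 0.

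The rest of the interferon and antigen presentation genes differed less. Of 28 type I interferon members, 0 passed 2-fold in either direction, with a median of -0.10. All 21 class I presentation members were above 0 without passing 2-fold. Their median was 0.35, led by the immunoproteasome subunit Psmb9 at 51.5 against 25.9 FPKM. The class II list had 11 of 13 members above 0 and a median of 0.31. Outside the lists, Gbp1 (now Gbp2b) had 37.8 against 15.4 FPKM and Ly6a, an interferon-responsive surface protein gene, 189 against 53.2 FPKM. Both of these were picked out after their values were seen.

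The replicate 2 pair went the other way. Of the 22 interferon gamma members with enough reads there, 20 were lower in CCL5-/- and 2 higher, with 6 at least 2-fold lower. Cxcl9 had 7503 reads in WT and 3165 in CCL5-/- replicate 2, a difference of -1.0005. Gbp4 stood at -1.03, Serpina3g at -1.21 and Iigp1 at -0.80. The type I list was lower for 27 of 28 members in that pair, and the class II list for 13 of 13. Also lower there were 16 of 19 macrophage markers, 15 of 18 class I members and 18 of 21 complement and Fc receptor members. Higher there were 20 of 20 cholesterol synthesis and 27 of 32 cell cycle members. The lower direction in replicate 2 was thus not particular to the interferon gamma list. Cytotoxic lymphocyte genes were mixed in the F4/80hi pair. There 8 of 12 NK and cytotoxic members were above 0, against 4392 of all 7969 members. Klrd1, an NK receptor chain, had 11.02 against 3.53 FPKM (1.41) and the granzyme gene Gzma 119 against 62.5 FPKM (0.92). The 4 below 0 were also granzyme genes: Gzmd (-0.35), Gzme (-0.64), Gzmf (-0.08) and Gzmg (-0.41). Over the 23 genes of that list the summed level was 502 and 412 FPKM, and 3 were at 0 in both libraries. Ncr1, a defining NK receptor gene, had 1.94 and 1.11 FPKM. In replicate 2, Gzma was at -1.50 and 9 of 12 were lower in CCL5-/-. The part of lymphocyte RNA in the interferon gamma result was not tested.

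Neutrophil genes had the lowest median of the gene lists. Of 30 listed, 29 were in the table and 25 were members, all 25 were lower in the ko-titled library and 21 were at least 2-fold lower, with a median of -2.35. In bulk RNA, fewer cells of a type and less RNA per cell cannot be told apart. The summed level over the list was 3441 FPKM in the ko-titled and 19723 in the wt-titled library. S100a8 and S100a9, the calcium-binding proteins that fill the neutrophil cytoplasm, had 1236 against 8045 and 1487 against 8344 FPKM, and in the wt-titled library they were among the 10 most abundant members. Both passed 2-fold, yet the authors' bounds overlapped for each.

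Several of the lowest genes on the list are known from neutrophil granules. Ngp, neutrophilic granule protein, had 6.56 FPKM against 128, a difference of -4.10, the lowest of all members apart from clone-named models and pseudogenes. Camp, the precursor of an antimicrobial peptide, had 1.17 against 24.0 FPKM, a difference of -3.52. Lcn2, lipocalin 2, which binds iron carriers of bacteria, had 26.1 against 222 FPKM, a difference of -3.04. The secreted protein gene Retnlg had 90.3 against 784 FPKM, a difference of -3.10, and Olfm4, olfactomedin 4, had 1.84 against 22.01 FPKM, a difference of -3.02. Bounds were apart for all 5. The stefin genes Stfa2, Stfa2l1 and Stfa3, inhibitors of cysteine proteases, were lower as well, with 14.2 against 102, 64.8 against 417 and 0.690 against 20.1 FPKM. They are close copies of each other, so their single values are uncertain.

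Genes of neutrophil surface receptors were also lower. Csf3r, the receptor for the growth factor G-CSF, had 21.1 against 75.9 FPKM, a difference of -1.80. The formyl peptide receptor gene Fpr1, counted with the cytokine list, had 11.3 against 58.0 FPKM, a difference of -2.26. Trem1, an amplifier of inflammation on neutrophils and monocytes, had 74.7 against 149 FPKM and was just short of 2-fold at -0.99. Mmp9, a gelatinase of neutrophils and macrophages, was nearest to level with 32.9 against 38.4 FPKM. The early granule genes of neutrophil precursors were near 0 in both libraries, with Elane listed at 0 and 0.253 FPKM and Mpo at 0.0522 and 0.151 FPKM.

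Other lower genes are known from neutrophils or the acute phase without being on the list. Chi3l1, a chitinase-like protein gene, had 4.98 against 40.8 FPKM, a difference of -2.81. Lrg1, a secreted leucine-rich glycoprotein gene, had 5.46 against 34.3 FPKM, and Saa3, serum amyloid A3, had 9.96 against 56.8 FPKM. Haptoglobin (Hp) had 28.6 against 109 FPKM. These 3 were picked out after their values were seen. In replicate 2 the neutrophil list was lower in CCL5-/- for 22 of 24 members with enough reads, but with 5 at least 2-fold lower and a median of -0.83. Ngp had 140 reads in WT and 53 in CCL5-/- replicate 2, a difference of -0.94. S100a8 was at -0.25 there, so the size of the difference was not shared between the pairs.

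**Figure D3:**
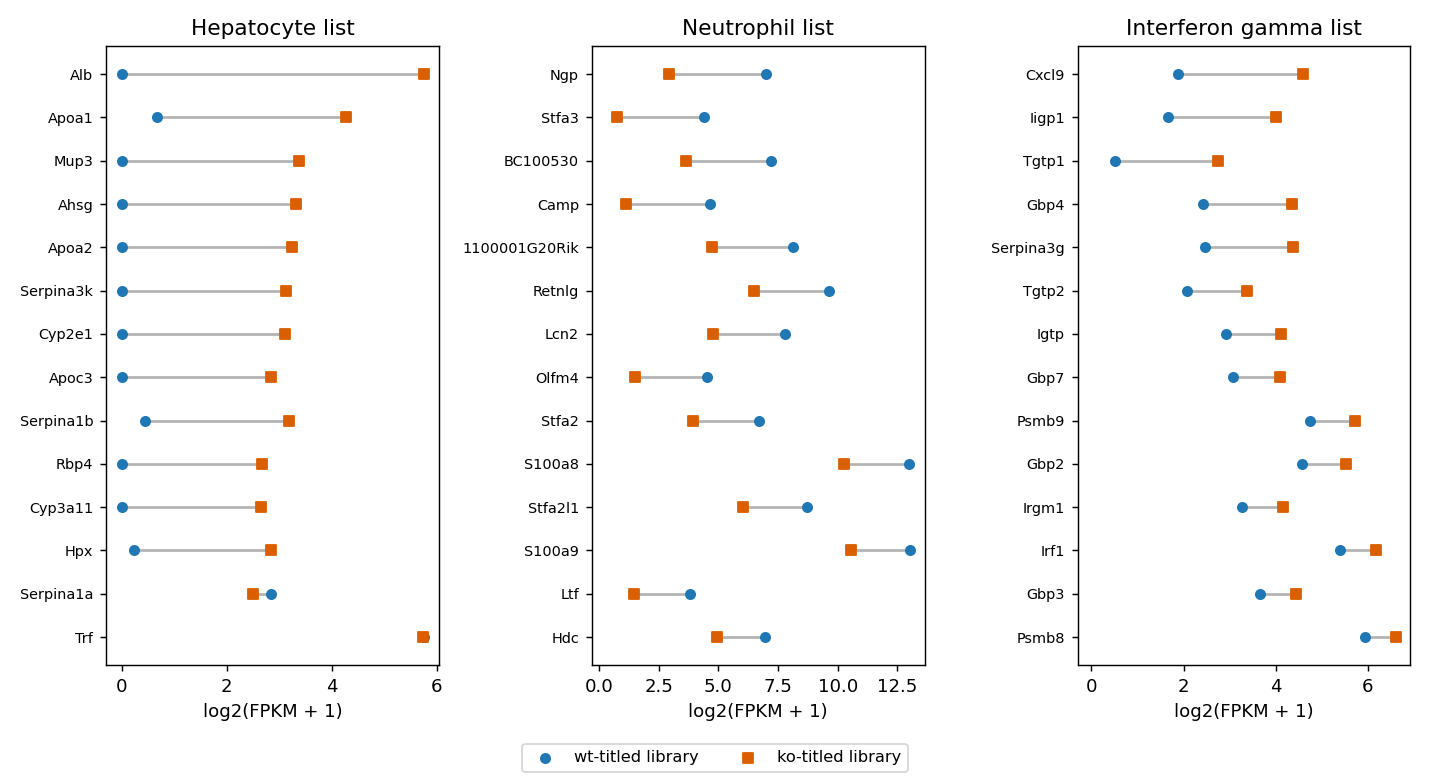
Levels of the 14 members with the widest differences in the hepatocyte, neutrophil and interferon gamma lists, as log2(FPKM + 1) in the wt-titled (circle) and ko-titled (square) library. Neutrophil genes are lower and interferon gamma genes higher in the ko-titled library; 9 hepatocyte genes are at 0 in the wt-titled library.

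Most genes of liver cells were found almost only in the ko-titled library. Of 29 hepatocyte markers, 23 were listed at 0 FPKM in the wt-titled library and 1 in the ko-titled one. The 14 members included 12 that were at least 2-fold higher. A gene at 0 in the wt-titled library could become a member only through the ko-titled one, so that count is a description. The other 2 members lay below 0, Serpina1a (4.69 against 6.19 FPKM, -0.34) and Trf (-0.02). Alb, the gene of serum albumin, had 53.0 FPKM against a listed 0. The apolipoprotein genes Apoa1 (18.2 against 0.594 FPKM) and Apoa2 (8.48 against a listed 0) followed. Ahsg, the fetuin A gene, had 9.01 FPKM, the major urinary protein gene Mup3 9.34 FPKM and the drug-metabolising enzyme gene Cyp2e1 7.66 FPKM, each against a listed 0.

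Levels of the whole liver set were low. The summed level of the 29 genes was 238 and 60.7 FPKM, of which the iron carrier gene Trf, which macrophages also express, made up 52.2 and 52.9 FPKM. Fabp1, a fatty acid-binding protein of liver and gut, had 11.7 FPKM and Gc, the vitamin D-binding protein gene, 5.82 FPKM, each against a listed 0. Neither is on the list. Of the 15 highest differences of the pair, leaving out clone-named models and pseudogenes, 9 belonged to the hepatocyte list and 13 were genes at 0 in the wt-titled library. Apoc1, an apolipoprotein gene of liver and macrophages, had 14.3 against 1.46 FPKM, a difference of 2.64. Mup genes are near-identical copies, and their single values are uncertain.

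In the count table, both liver genes looked up here had most of their reads in 1 library. Alb had 653 reads in CCL5-/- replicate 1, 0 in WT replicate 1, 1 in WT replicate 2 and 0 in CCL5-/- replicate 2. Apoa1 had 136 reads in CCL5-/- replicate 1, and 3, 19 and 6 reads in the same order. Neither gene was thus raised in the other CCL5-/- library. The part that these markers play in the other differences between the libraries was not tested.

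Macrophage identity genes hardly differed. Of 20 macrophage markers, 19 were members and 0 passed 2-fold, with 13 above 0 and a median of 0.23. The widest were Mrc1, the mannose receptor of alternatively activated macrophages, with 106 against 60.6 FPKM (0.80), the transcription factor gene Maf with 11.03 against 6.02 FPKM (0.78) and Gpnmb, a lysosome-linked glycoprotein gene, with 4.63 against 8.46 FPKM (-0.75). The complement genes C1qa (259 and 221 FPKM) and C1qb (179 and 151 FPKM) were close to level. Summed over the list, the levels were 8221 and 7215 FPKM. In replicate 2, 16 macrophage members were lower in CCL5-/- and 3 higher, with 2 at least 2-fold lower and a median of -0.34. Monocyte genes were also near level for Ly6c2 (170 and 156 FPKM) and Plac8 (388 and 482 FPKM). Of 14 monocyte members, 2 were 2-fold lower: Chi3l3 (now Chil3), a chitinase-like protein gene, at 53.6 against 165 FPKM, and the interferon-inducible membrane protein gene Ifitm6 at 32.3 against 114 FPKM.

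Activation and remodelling genes went both ways. Of 16 alternative activation members, 12 were above 0, with a median of 0.38, and none was 2-fold higher. The 2 that were 2-fold lower were Chi3l3 and the secreted protein gene Retnla (2.61 against 7.79 FPKM). The arginase gene Arg1 had 515 against 299 FPKM (0.78). Of 20 cytokine members, 0 were 2-fold higher and 2 were lower, Fpr1 and the interleukin 12 subunit gene Il12a (0.985 against 5.19 FPKM). Il10, an anti-inflammatory cytokine gene, had 272 against 166 FPKM (0.71), and Il1b had 2232 against 2471 FPKM (-0.15). Of 18 matrix remodelling members, 12 were below 0, with a median of -0.21, 1 was 2-fold higher and 1 lower. Mmp8, the neutrophil collagenase gene, had 26.2 against 88.0 FPKM, a difference of -1.71. Plau, the urokinase gene of matrix breakdown, had 161 against 67.2 FPKM, a difference of 1.25. The collagen-degrading protease gene Ctsk had 48.8 against 16.3 FPKM, a difference of 1.53, while the 22 other lysosomal genes listed lay between -0.25 and 0.52. No member of the checkpoint, unfolded protein response, oxidative phosphorylation or cell cycle lists passed 2-fold.

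Enzymes of cholesterol synthesis were higher in the ko-titled library. All 21 members of the 24 listed genes were above 0, 7 were at least 2-fold higher and the median was 0.76. Idi1, isopentenyl diphosphate isomerase, had 24.2 against 5.84 FPKM, a difference of 1.88. Hmgcs1, which makes HMG-CoA, had 22.03 against 8.34 FPKM, a difference of 1.30. Nsdhl, Sc4mol (now Msmo1) and Cyp51, which convert lanosterol and the sterols after it, had 14.5 against 5.79, 62.1 against 27.3 and 26.8 against 12.6 FPKM. Sqle, squalene epoxidase, had 31.0 against 13.5 FPKM, a difference of 1.1396. The authors' bounds overlapped for every gene of the list.

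Lipid genes outside that pathway were mixed. Of 15 fatty acid synthesis and desaturation members, 14 were above 0 with a median of 0.57, and the desaturase genes Fads2 (14.5 against 6.96 FPKM) and Scd2 (62.7 against 32.1 FPKM) were just under 2-fold. Ch25h, which makes 25-hydroxycholesterol and was picked out after its values were seen, had 17.3 against 4.88 FPKM, a difference of 1.64. The efflux transporter genes Abca1 (31.8 and 33.8 FPKM) and Abcg1 (5.65 and 5.89 FPKM) were level. In replicate 2, all 20 cholesterol synthesis members with enough reads were higher in CCL5-/-, 5 of them at least 2-fold, with a median of 0.79. Nsdhl was at 1.28 and Cyp51 at 1.02 there. Of the lists described so far, cholesterol synthesis had the same direction in both pairs for every member with reads.

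**Figure D4:**
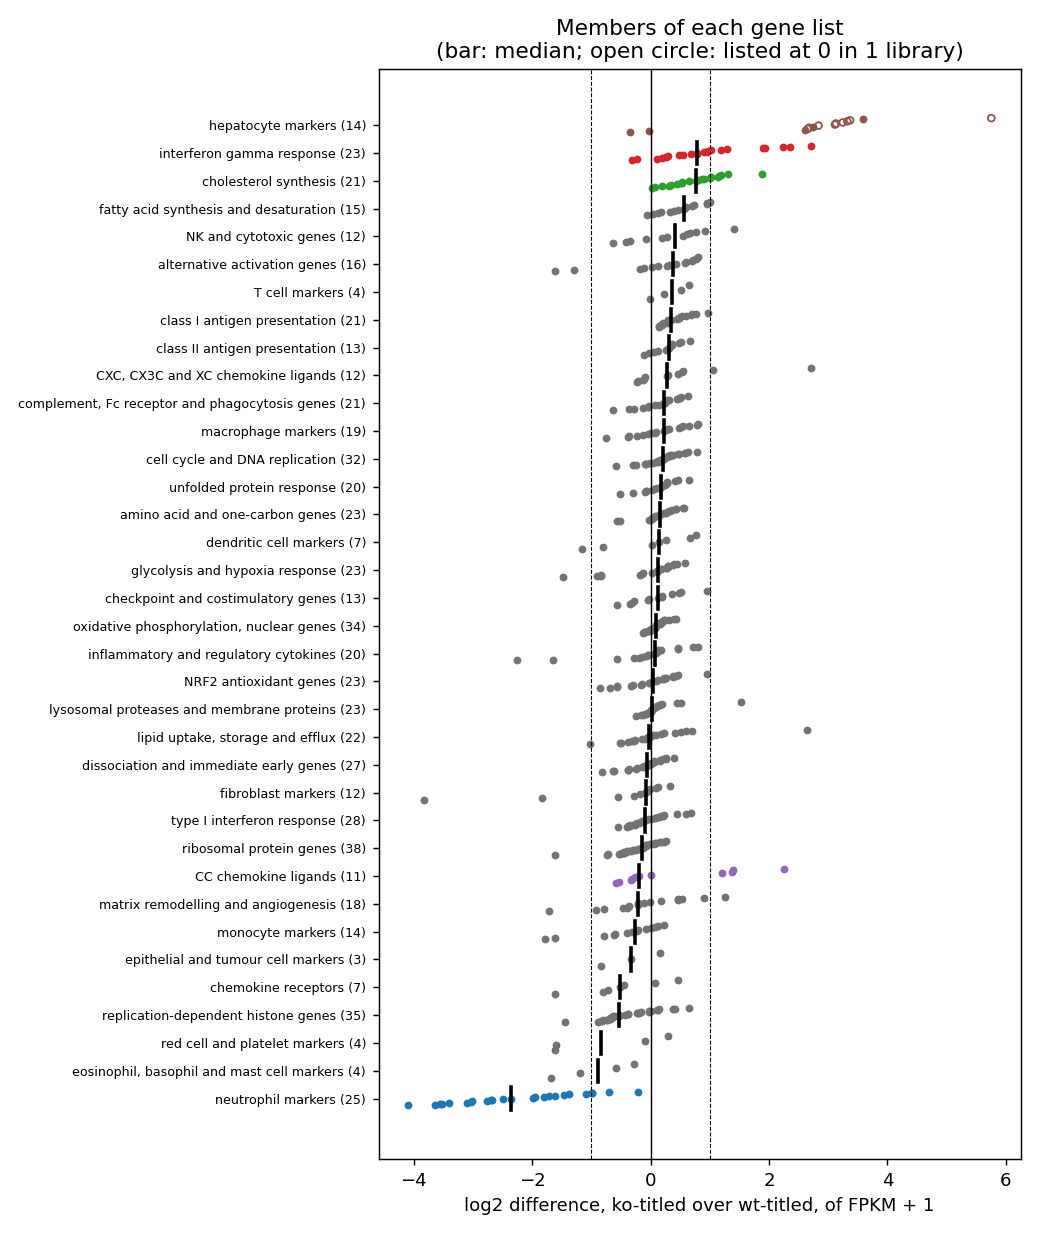
Log2 difference (ko-titled over wt-titled, FPKM + 1) of each member of the 36 gene lists with at least 3 members; points are genes, bars are list medians and dashed lines mark 2-fold. Open circles are genes listed at 0 in 1 library, whose position depends on the added 1, and the hepatocyte list that holds them has no bar. The neutrophil list lies lowest, with a median of -2.35.

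Genes of other cell types were present at varied levels. The fibroblast collagen genes Col1a1 (23.3 and 24.8 FPKM) and Col1a2 (132 and 121 FPKM) were level, while the matrix genes Mgp (20.5 against 305 FPKM, -3.83) and Dcn (18.4 against 68.2 FPKM, -1.84) were lower. Of 12 fibroblast members, those 2 alone passed 2-fold. Over the 21 genes of the list the summed level was 380 and 723 FPKM, with 0 of them at 0. Endothelial markers gave 0 members of 15, with a summed level of 8.20 and 18.3 FPKM. Epithelial and tumour markers summed to 78.2 and 127 FPKM over 19 genes, of which 4 were at 0 in the ko-titled and 7 in the wt-titled library. T cell markers summed to 69.3 and 57.3 FPKM over 17 genes, and B and plasma cell markers to 6.72 and 6.09 FPKM over 10. The T cell receptor component gene Cd3e had 3.47 and 2.52 FPKM and the co-receptor gene Cd8a 4.58 and 2.86 FPKM. The B cell genes Cd79a and Ms4a1 were listed at 0 in the wt-titled library and at no more than 0.115 FPKM in the ko-titled one. Epcam, an adhesion gene of epithelial cells, was near 0 at 0.252 and 0.153 FPKM. Of the keratin genes on the same list, Krt20 had 58.6 and 106 FPKM, Krt18 6.97 and 9.01, Krt8 5.51 and 4.82 and Krt19 0.460 and 0.503. Of the alpha globin genes of red cells, Hba-a1 had 33.5 against 103 FPKM and Hba-a2 24.2 against 75.7 FPKM. The part of any of these cells in the differences above was not tested.

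The most abundant members included genes of translation and RNA processing. Lars2, encoding the mitochondrial leucyl-tRNA synthetase, was listed at 14708 and 25020 FPKM, and Rmrp, the RNA of the RNase MRP enzyme, at 10027 and 19908 FPKM. Rn45s, the precursor of ribosomal RNA, was listed at 0 FPKM in both libraries. In the count table it took 50.03% and 58.4% of reads in replicate 1 (CCL5-/- and WT) and 1.38% and 0.844% in replicate 2. Ribosomal protein genes were near level, with 1 of 38 past 2-fold and a median of -0.15. That gene was Rps27 (2449 against 7452 FPKM), while Gm9846, a retrogene copy now named Rps27rt, ran opposite with 4858 against 1509 FPKM. Fragments of these 2 copies may be divided between them, so neither value is certain.

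Counts of the replicate 1 pair, held to be the same libraries, gave a check on the FPKM estimates. In that pair 1.42% of members with enough reads were 2-fold higher and 1.32% were 2-fold lower, with a median of 0.14. Of the 76 higher genes, 64 had at least 20 reads in it and 57 were 2-fold higher again. Of the 135 lower genes, 113 had the reads and 85 were 2-fold lower again, with 0 in the opposite direction past 2-fold in either set. For 10 called genes the counts showed no such difference. Vprbp (now Dcaf1), part of a ubiquitin ligase, had 7.27 against 92.5 FPKM but 238 reads in CCL5-/- and 112 in WT replicate 1. Tmco1, a calcium channel gene of the endoplasmic reticulum, had 16.6 against 167 FPKM but 349 and 182 reads. The FPKM differences of these 2 genes were thus not seen in the counts. Mrgpre, a receptor gene at 0.903 against 28.1 FPKM, had 3 and 3 reads, too few for this check.

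The called genes were then followed into the replicate 2 pair. Of the 76 higher genes, 49 had enough reads there, and 20 were higher and 29 lower in CCL5-/-. Of the 135 lower genes, 114 had the reads, and 85 were lower and 29 higher. Past 2-fold in the same direction in both pairs were 18 genes, 3 higher and 15 lower. Over all members with enough reads in replicate 2, 0.59% were 2-fold higher and 1.58% were 2-fold lower. The 3 higher were Cyp51, Nsdhl and the glutathione transferase gene Gstm2 (12.1 against 4.08 FPKM). The 15 lower included Ccl5, Dhx40, Slfn10-ps, Dcn, Camp, Retnlg, the protease inhibitor gene Slpi (113 against 294 FPKM), the interleukin 36 gamma gene Il1f9 (40.6 against 114 FPKM) and Cd24a, a surface glycoprotein gene (61.8 against 138 FPKM). For Ccl5 the difference was -5.07 in replicate 2. The 15 also held Ptp4a1, at -1.03 in replicate 2. Its FPKM difference was not seen in the replicate 1 counts (35 reads in CCL5-/- and 32 in WT, -0.28).

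**Figure D5:**
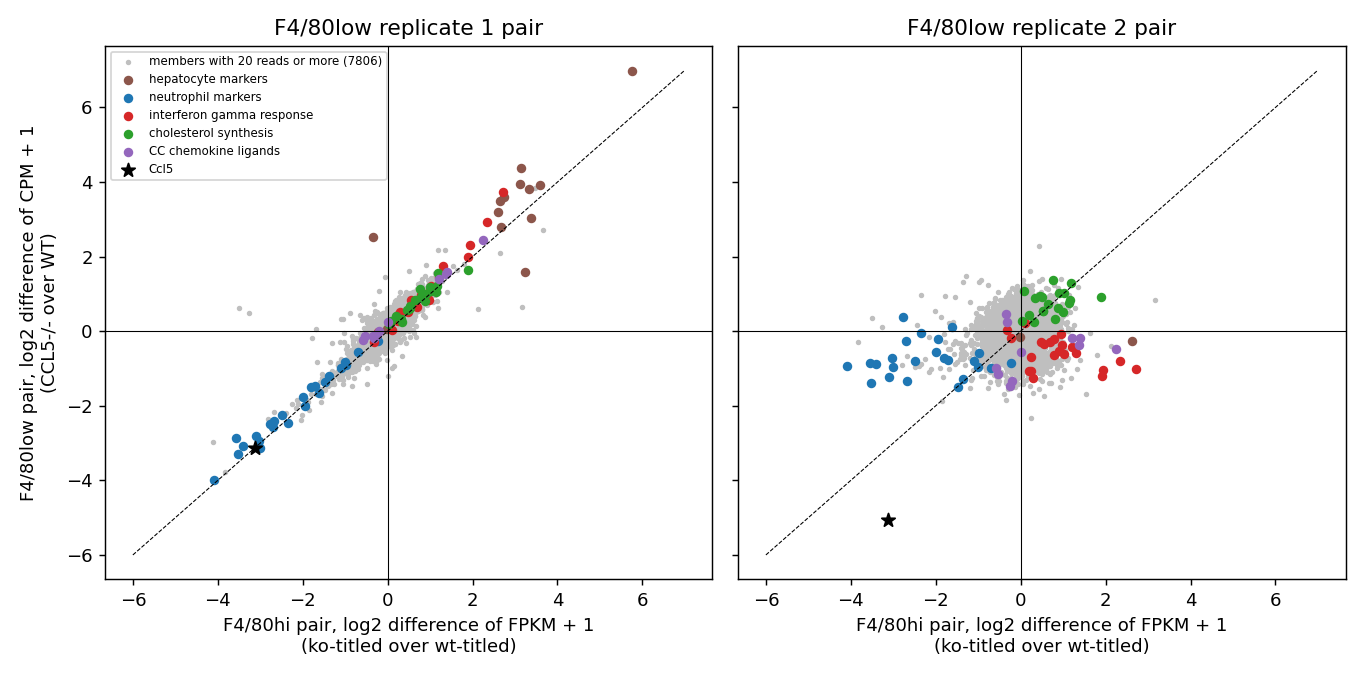
Log2 difference of members in the F4/80hi pair (x axis, FPKM + 1) against the replicate 1 (left) and replicate 2 (right) pair of F4/80low (y axis, CPM + 1), for genes with at least 20 reads. Points hug the dashed line of equal values at left, where 91.7% of the better-covered genes lie within 0.25; at right 20 of 22 interferon gamma genes (red) lie below 0 and all 20 cholesterol genes (green) above.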

How the data were processed

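RNA of 6 libraries was extracted with Trizol and made into Illumina TruSeq libraries, per the labels' protocols. The submitters' processing notes name Cufflinks 2.2.1 and TopHat2 2.1.1, and also STAR, HTSeq, DESeq2, cutadapt, FastQC and bcl2fastq 2.17.1.14. The tool and build behind each table, and any use of strand in counting, are not given in the sources used here. For F4/80hi the values are FPKM with lower and upper bounds, computed by the authors and named so per the file headers. Their depth is not given with them. The F4/80low values are raw read counts deposited by the authors, with totals of 9280635 to 22411342 per library. Rn45s was left out of the CPM totals. These were 5243643 (CCL5-/-) and 3857011 (WT) in replicate 1, and 18810113 and 22222208 in replicate 2. The replicate 1 libraries are those treated here as the F4/80hi pair. Replicates are not said to come from separate mice. Loci overlapped RefSeq GRCm38.p6 for 99.0% of 20723 shared symbols, and older symbols were matched through RefSeq, giving 7944 members a count row.

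Differences were computed with a pseudocount of 1 (Python 3.11.15, pandas 2.3.3, scipy 1.17.1), and the script was tested on simulated data. Members, the 39 gene lists and the rules were chosen with earlier results of these data known. Named genes are Ccl5, the 15 highest and 15 lowest differences without clone-named models and pseudogenes, the 10 most abundant members, up to 4 members per list by size of difference and members past 2-fold within 5 Mb of Ccl5. Other named genes were chosen after their values were seen, some listed members among them. Not every gene the rule takes is reported here, and mitochondrially encoded genes had no entry. Alternatives covered the pseudocount, the FPKM minimum, estimate status, small RNA rows, scaling, bounds and the count table.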

Additional observations from a re-analysis of the deposited data

Results flagged for a closer look

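Among members at least 2-fold apart in the F4/80hi pair, 9 were at least 2-fold apart in the opposite direction in the F4/80low replicate 2 pair. They were 7 of 49 higher genes with enough reads, where 1.58% of all members were 2-fold lower in replicate 2. The other 2 were among 114 lower genes, where 0.59% of all members were 2-fold higher. The F4/80hi pair is treated above as F4/80low replicate 1, so these differences cannot be read as differences between gates. Each pair holds 1 library per genotype, so the difference between the pairs was not tested. The chemokine gene Cxcl9 differed by 2.71 in the F4/80hi pair (ko-titled over wt-titled) and by -1.0005 in replicate 2 (CCL5-/- over WT). The guanylate-binding protein gene Gbp4 differed by 1.93 and -1.03. Serpina3g, a protease inhibitor gene, differed by 1.90 and -1.21. Ctsk, the cathepsin K gene, differed by 1.53 and -1.69. Clec12a, an inhibitory lectin receptor gene of myeloid cells, differed by 1.33 (40.9 against 15.7 FPKM) and -1.02. Rnase6, an antimicrobial ribonuclease gene, differed by 1.18 (8.01 against 2.99 FPKM) and -1.25, with 163 reads in WT and 47 in CCL5-/- replicate 2. Gpr65, a proton-sensing receptor gene, differed by 1.02 (22.3 against 10.48 FPKM) and -1.05. In the other direction, Retnla differed by -1.29 and 1.48, on 14 reads in WT and 67 in CCL5-/- replicate 2. Rpph1, the RNA of the RNase P enzyme, differed by -1.37 (260 against 674 FPKM) and 1.33.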

How the results depend on the processing

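The count of 2-fold higher genes, 76 as reported, was 180 with an FPKM minimum of 1 or none, 47 with a minimum of 10 and 19 with bounds not overlapping. The count of lower genes, 135, was 246 with a minimum of 1 or none and 25 with bounds not overlapping. A minimum of 1 and none gave equal counts because a gene under 1 FPKM in both libraries cannot pass 2-fold after 1 is added. Other planned settings kept both counts within 1.5 times, and so did 2 alternatives added after seeing the data, the replicate 1 counts (111 and 103) and leaving out genes listed at 0 (61 and 134). Ccl5 stayed between -3.31 and -3.12. Medians of 35 lists kept their side of 2-fold in 173 of 173 alternatives. Their direction changed in 2, both near 0: lipid uptake, storage and efflux went from -0.03 to 0.02 with a minimum of 10, and lysosomal genes from 0.02 to -0.02 after scaling. Named genes kept their direction, and in 310 of 315 alternatives their side of 2-fold. In the other 5, genes just under 2-fold passed it: Rmrp at -1.03 after scaling, and Pdcd1, Elovl6, Fads2 and Cat with a pseudocount of 0.1. The hepatocyte median is not given, since most of its members are listed at 0 in 1 library. No paired analysis was possible because there is 1 library per title.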

Other observations

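Small RNA rows, left out of the members, held the most extreme values of the table. Of the 39 such rows at or above the minimum, 28 were 2-fold lower in the ko-titled library and 2 were 2-fold higher. Over all members the shares were 1.69% lower and 0.954% higher. Snord2, a small nucleolar RNA, was listed at 314701 FPKM in the ko-titled library (authors' bounds 0 to 1.22e+06) and at 0 in the other. Snora24 was listed at 0 in the ko-titled and at 1152 FPKM in the wt-titled library (bounds 0 to 3546). With lower bounds of 0, neither value is certain.

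Some genes of skeletal muscle were among the 135 lower genes. The muscle actin gene Acta1 had 5.70 against 16.6 FPKM, with 63 reads in CCL5-/- and 134 in WT replicate 1. The fast troponin gene Tnnc2 had 1.72 against 6.16 FPKM, and the muscle creatine kinase gene Ckm had 2.87 against 8.21 FPKM. These genes were picked out after their values were seen. Replication-dependent histone genes, whose RNA lacks a poly(A) tail, had 28 of 35 members below 0 with a median of -0.53 and 1 past 2-fold. The glucose transporter gene Slc2a3, one of 23 glycolysis and hypoxia members, had 4.60 against 14.7 FPKM, and it alone of those passed 2-fold. Of the 76 higher genes 36 were on at least 1 of the 39 lists, and of the 135 lower genes 37 were. The share of all members on a list is not given here, and the lists were chosen with earlier results known. These counts therefore only describe how much of the called genes the lists cover.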
